A study of Mus musculus with 8 samples.

Results

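The colony-stimulating factors and their receptors were followed in cultured mouse microglia as 7 genes, the ligand genes Csf1, Csf2 and Csf3 and the receptor genes Csf1r, Csf2ra, Csf2rb and Csf3r. The members were chosen by gene symbol, through the RefSeq accession of each array probe. All 7 were measured, by 12 probes, among 19117 genes tested on the arrays. The cells were primary microglia of C57BL/6 mice, and every culture was treated for 3 h. The 4 treatments were Ecrg4(71-132), a fragment of the secreted precursor protein Ecrg4 fused to an antibody Fc fragment, the shorter fragment Ecrg4(133-148) fused in the same way, Fc alone, and PBS. Both fragments and Fc were given at 20 µg/ml, so that Fc is the control for the carrier and PBS the control for the vehicle. Each treatment has 2 one-colour Agilent arrays, and the titles number these as set 1 and set 2, so that each set holds 1 array of each treatment. The labels give no age or sex of the mice, and whether the 2 sets were grown from different animals or in different cultures is not stated, so p-values measure only the spread between these samples, which may be technical.

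Colony-stimulating factors are secreted proteins that keep myeloid cells alive, expand them and activate them. Csf1 encodes macrophage colony-stimulating factor, the ligand of the receptor tyrosine kinase Csf1r, on which microglia depend for their survival. Csf2 encodes granulocyte-macrophage colony-stimulating factor, which binds the ligand-specific alpha chain Csf2ra together with the signalling chain Csf2rb, and Csf3 encodes granulocyte colony-stimulating factor, which binds Csf3r. The Csf2 and Csf3 receptors have no kinase of their own and signal through JAK kinases and STAT transcription factors. Resting microglia make little Csf2 and Csf3, and inflammatory stimuli are known to raise both.

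The stretches of 250 bases before the annotated start of 2 ligand genes are shown because Csf1 and Csf2 were both highest with Ecrg4(71-132) in each set. The window of Csf3, which was highest there too, and those of Csf1r and Csf2rb were not analysed here. Both are RefSeq sequences on GRCm38.p6, read 5′ to 3′ along the strand of the gene. The Csf1 window is chr3:107760470-107760719 on the minus strand, and the Csf2 window is chr11:54249900-54250149, also on the minus strand. Capitals mark matches on either strand to 4 motifs, which were kappa-B-like GGGA followed by any 4 bases and CC, AP-1 TGANTCA, C/EBP-like TTNNGNAA and PU.1-like GAGGAA.
Csf1: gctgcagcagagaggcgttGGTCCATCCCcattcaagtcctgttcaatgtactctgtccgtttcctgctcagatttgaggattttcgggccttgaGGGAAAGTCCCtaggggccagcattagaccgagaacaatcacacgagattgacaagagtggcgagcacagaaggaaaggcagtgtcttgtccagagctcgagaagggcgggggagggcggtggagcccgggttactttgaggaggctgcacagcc
Csf2: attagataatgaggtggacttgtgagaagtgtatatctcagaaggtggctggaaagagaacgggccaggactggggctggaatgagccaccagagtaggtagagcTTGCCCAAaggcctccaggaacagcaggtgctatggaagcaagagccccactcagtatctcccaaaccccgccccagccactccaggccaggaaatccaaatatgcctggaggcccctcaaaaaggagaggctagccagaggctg
The Csf1 window held 3 kappa-B-like matches, at 231 to 222, 155 to 146 and 154 to 145 bases before the start, of which the last 2 overlap and share 1 run of capitals. The Csf2 window held 1 C/EBP-like match, at 145 to 138 bases before the start. Among 32851 mouse promoter windows of this length, 17.6% held a kappa-B-like match, 36.8% a C/EBP-like match, 23.3% a PU.1-like match and 6.75% an AP-1 match. A match of letters is a description of the window and not a binding site. Whether the annotated starts are those used in these cells was not tested. A window without a motif therefore does not show that the gene lacks such a site. The windows of Csf2ra and Csf3r were searched as well. That of Csf2ra held 1 C/EBP-like and 2 PU.1-like matches, and that of Csf3r 1 kappa-B-like and 1 PU.1-like match.

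Signals are given as log2 of the background-subtracted spot intensity minus log2 of the array's 75th percentile, so that 0 is the 75th percentile of that array. The 75th percentile lay between 495 and 809 intensity units, and 24242 to 29474 of 55681 probes per array were well above background. Levels of different probes were not compared, because each probe has its own response. The label of the cells was checked against 9 genes of microglia and macrophages, of which 9 were well above background on the set 1 arrays and 8 or 9 on the set 2 arrays. Their summed linear signal, with the 75th percentile as 1, was 501 to 542 in set 1 and 546 to 606 in set 2. The sets differed in single markers. Cx3cr1, the fractalkine receptor, stood at 4.58 to 4.71 in set 1 and at -3.25 to -0.74 in set 2, and Tmem119 was well above background on 5 of 8 arrays. Markers of other cells differed between the sets as well. All 4 fibroblast genes and all 6 astrocyte genes were well above background on each set 1 array, against 1 to 3 and 1 to 4 of them in set 2, and the fibroblast genes summed to 21.9 to 47.1 in set 1 and 0.375 to 0.556 in set 2. The astrocyte sum was 9.37 to 17.9 in set 1 and 12.4 to 14.4 in set 2, where it came mostly from Aldh1l1. Aldh1l1 read 2.33 to 2.97 in set 1 and 3.59 to 3.83 in set 2. The other astrocyte genes were lower in set 2, such as Gfap at 1.11 to 2.43 in set 1 and -6.23 to -3.66 in set 2.

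Of the 7 members, 5 were well above background on all 8 arrays. Csf2 was well above background on 5 arrays and entered the tests only through Ecrg4(71-132). Csf3 was well above background on 6 arrays and entered through the 2 fragment groups. Csf2 and Csf3 therefore had to differ between groups to some extent once they were kept, and a count over the kept members is not evidence of a response. In RNA of a whole culture, fewer cells of a type and less RNA per cell cannot be told apart.

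**Figure D1:**
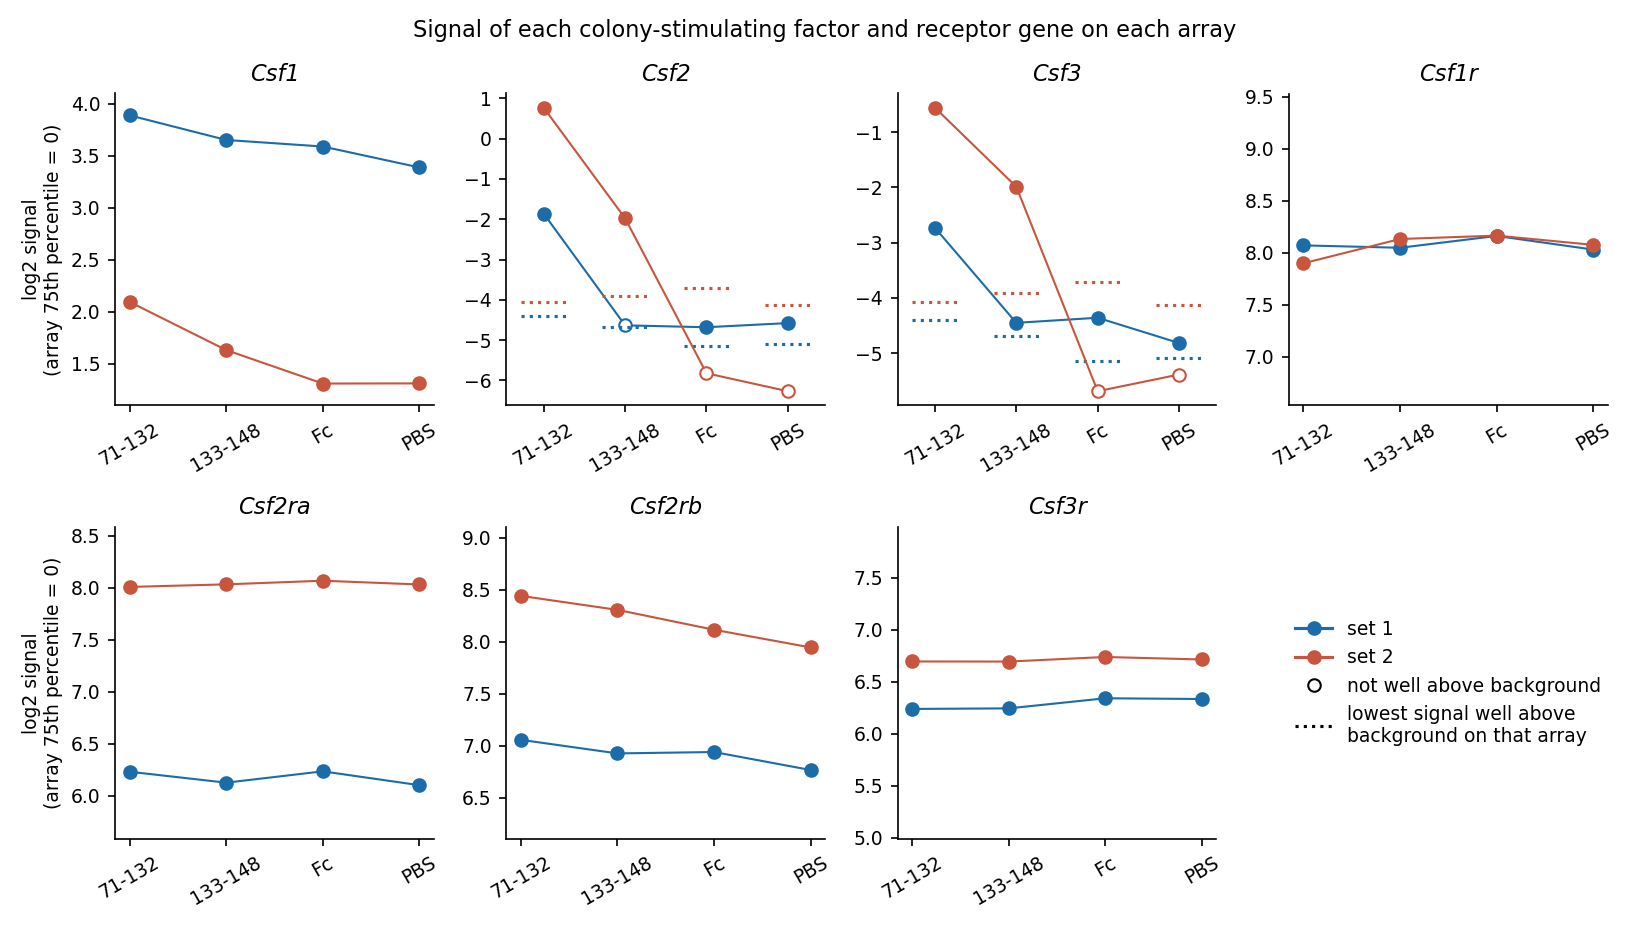
Log2 signal (vertical axis, array 75th percentile at 0) of the 7 member genes on each of the 8 arrays, by treatment (horizontal axis), with set 1 in blue and set 2 in red. Open circles are signals not well above background, and the dotted bars in the Csf2 and Csf3 panels are the lowest signal well above background on that array. Csf2 and Csf3 were highest with Ecrg4(71-132) in both sets, and the receptor lines are nearly flat across treatments but lie apart by set for Csf2ra, Csf2rb and Csf3r.

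Csf2, the gene of granulocyte-macrophage colony-stimulating factor, showed the widest range over the treatments. In set 1 its log2 signal was -1.86 with Ecrg4(71-132), -4.63 with Ecrg4(133-148), -4.68 with Fc and -4.58 with PBS. In set 2 it was 0.77 with Ecrg4(71-132), -1.98 with Ecrg4(133-148), -5.82 with Fc and -6.27 with PBS. The Ecrg4(71-132) array was the highest of both sets, the other 3 arrays of set 1 lay close together, and in set 2 Ecrg4(133-148) lay between Ecrg4(71-132) and the controls. The Fc and PBS arrays of set 2 and the Ecrg4(133-148) array of set 1 were not well above background for Csf2. Differences against the set 2 controls are given as lower bounds. As plain intensities, the probe read 173 and 1043 with Ecrg4(71-132), 29.9 and 132 with Ecrg4(133-148), 32.3 and 8.80 with Fc, and 32.9 and 7.18 with PBS, in set 1 and set 2.

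Against Fc, Csf2 with Ecrg4(71-132) was 7.06-fold higher in set 1 and at least 22.4-fold higher in set 2. Ranked by the measured difference from the top of 19117 genes, Csf2 came 12 in set 1, and no rank is given for set 2, where the Fc signal was not well above background. Over both sets, with every signal taken as measured, the log2 difference was 4.71 (SE 1.30). Limma gave an unadjusted p of 0.0136 and an adjusted p of 1. With the set as a replicate block the adjusted p was 0.226. The comparison thus did not pass the threshold of 0.05 in either fit, and 0 of 19117 genes (0%) passed in either.

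No gene passed in any of the 6 comparisons of treatments, with or without the block. At an unadjusted p under 0.05 in limma without the block, 3.36% of genes lay past the threshold for Ecrg4(71-132) minus Fc, 0.46% for Ecrg4(133-148) minus Fc and 0.738% for Ecrg4(71-132) minus Ecrg4(133-148). The same share was 4.88% for Ecrg4(71-132) minus PBS, 0.973% for Ecrg4(133-148) minus PBS and 0.267% for Fc minus PBS. With the set as a block the shares were 18.6%, 5.26%, 6.33%, 23.7%, 9.14% and 1.86% in that order of comparisons. Csf2 and Csf3 had an unadjusted p under 0.05 for Ecrg4(71-132) against Fc and against PBS in both fits, and Csf1 had one with the block only. With the block, Csf1 also had one between the fragments, and Csf2rb had one for each fragment against PBS.

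Csf2 with Ecrg4(133-148) was close to Fc in set 1, with a measured difference of 0.05 on the log2 scale, and at least 3.35-fold higher in set 2. The fitted log2 difference over both sets was 1.95 (SE 1.30, limma adjusted p = 1). Between the fragments, Csf2 with Ecrg4(71-132) measured 6.84-fold higher than with Ecrg4(133-148) in set 1 and 6.70-fold higher in set 2. That log2 difference was 2.76 with a 95% interval of -0.52 to 6.04 (limma adjusted p = 1). The interval includes 0 and also differences larger than the one measured. The set 1 fold between the fragments is not a bound. There the Ecrg4(133-148) signal was not well above background. At -4.63 it still lay above the lowest signal well above background on that array, -4.68. Against PBS, set 2 gave at least 29.9-fold for Ecrg4(71-132) and at least 4.46-fold for Ecrg4(133-148).

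The Csf2 probe was printed 10 times on each array, which shows the technical spread. With Ecrg4(71-132) all 10 spots were well above background on both arrays, and with Ecrg4(133-148) 4 of 10 were in set 1 and all 10 in set 2. With Fc and PBS, 6 and 7 of the 9 spots used were well above background in set 1, and 0 in set 2. On the set 1 arrays of Fc and PBS the tenth spot was outlying, at intensities of 271 and 292, and was left out by its flag. The same spot read 211 with Ecrg4(71-132) and 32.7 with Ecrg4(133-148) in set 1. An alternative added after seeing the data left this spot out on all arrays, and the log2 difference between Ecrg4(71-132) and Fc was then 4.69.

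**Figure D2:**
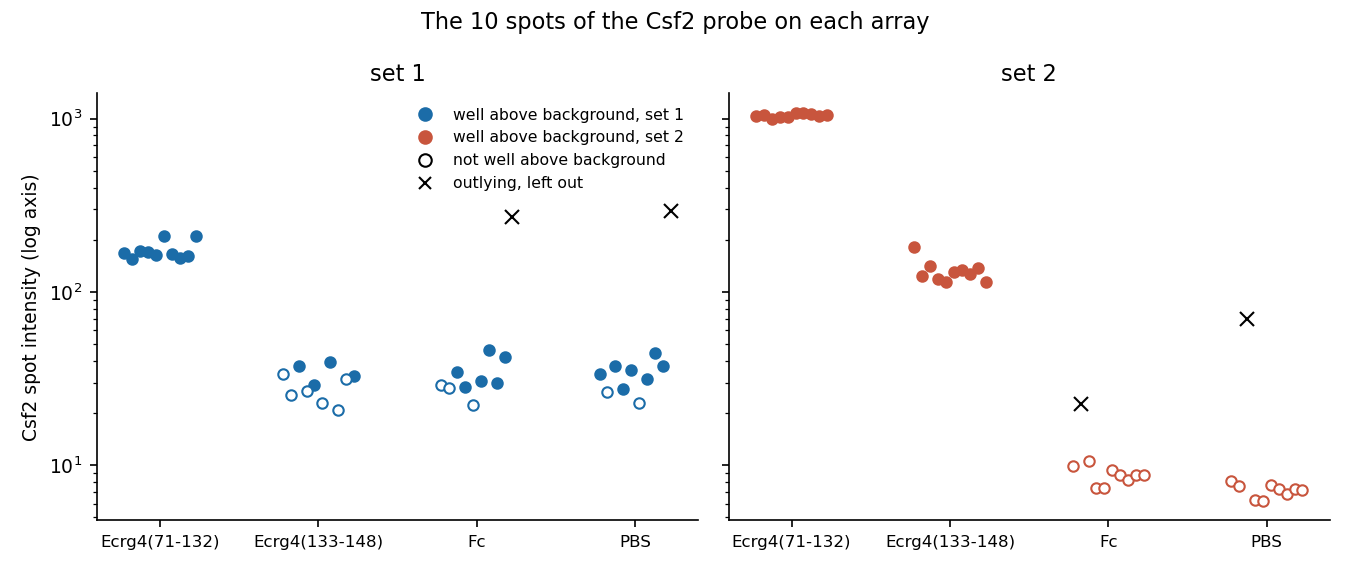
Intensity (vertical log axis) of each of the 10 spots of the Csf2 probe by treatment (horizontal axis), set 1 on the left and set 2 on the right. Filled points were well above background, open points were not, and crosses are spots left out as outlying. The spots with Ecrg4(71-132) lie above all used spots of the other treatments of their set.

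Csf3, the gene of granulocyte colony-stimulating factor, followed a similar order with smaller differences. In set 1 its log2 signal was -2.73 with Ecrg4(71-132), -4.45 with Ecrg4(133-148), -4.36 with Fc and -4.82 with PBS. In set 2 it was -0.55 with Ecrg4(71-132), -1.99 with Ecrg4(133-148), -5.69 with Fc and -5.39 with PBS. Ecrg4(71-132) was again the highest array of each set, and the set 2 controls were not well above background. Csf3 had 1 probe, printed 1 time per array, so no spread over spots is known. Its set 1 intensities were 94.3 with Ecrg4(71-132), 33.3 with Ecrg4(133-148), 39.4 with Fc and 27.4 with PBS. For scale, the used Csf2 spots of the set 1 Fc array ran from 22.2 to 46.0. Csf3 with Ecrg4(71-132) was 3.10-fold higher than with Fc in set 1 and at least 8.97-fold higher in set 2, and ranked 55 of 19117 by the measured difference in set 1. The fitted log2 difference was 3.38 (SE 1.1). Limma gave an unadjusted p of 0.0252 and an adjusted p of 1, or 0.239 when the set was a block. With Ecrg4(133-148), Csf3 differed from Fc by -0.09 on the log2 scale in set 1 and was at least 3.32-fold higher in set 2. Between the fragments Csf3 was 3.30-fold higher with Ecrg4(71-132) in set 1 and 2.70-fold higher in set 2 (limma log2 difference 1.58, 95% interval -1.20 to 4.35, adjusted p = 1).

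Csf1, the gene of macrophage colony-stimulating factor, was well above background everywhere and differed little between treatments. Its log2 signal in set 1 was 3.89 with Ecrg4(71-132), 3.65 with Ecrg4(133-148), 3.59 with Fc and 3.39 with PBS. The set 2 values were 2.09 with Ecrg4(71-132), 1.63 with Ecrg4(133-148), 1.31 with Fc and 1.31 with PBS. Both sets ran from the controls through Ecrg4(133-148) to Ecrg4(71-132), and the sets did not overlap. The full order of PBS, Fc, Ecrg4(133-148) and Ecrg4(71-132) from low to high held for Csf1 in set 1, as it did for 12.3% of all genes. In set 2 it held for Csf2rb and Csf2, as it did for 15.1%. For Csf2 both controls of set 2 were not well above background, so their order is unsure. Against Fc, Csf1 with Ecrg4(71-132) was 1.23-fold higher in set 1 and 1.72-fold higher in set 2. The limma log2 difference was 0.54 (SE 1.26, adjusted p = 1) without the set as a block. With the block the SE was 0.13, the unadjusted p 0.00966 and the adjusted p 0.207. The other 2 Csf1 probes gave the same order of Ecrg4(71-132) above Ecrg4(133-148) above Fc in both sets. Between the fragments the difference was 0.24 in set 1 and 0.46 in set 2. The limma estimate of 0.35 had a 95% interval of -2.81 to 3.51 without the block (adjusted p = 1). That interval takes in the difference between the sets. With the block it was 0.01 to 0.69 (limma unadjusted p 0.0442, adjusted p 0.714).

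All 3 ligand genes were higher with Ecrg4(71-132) than with Fc in both sets, as were 28.5% of all genes tested. Csf2 and Csf3 were over 2-fold higher in both sets, a size that 0.779% of all genes reached in set 1, 4.21% in set 2 and 0.46% in both. With Ecrg4(133-148), no ligand gene was over 2-fold higher than Fc in set 1, where 0.45% of genes were, and Csf2 and Csf3 were over 2-fold higher in set 2, where 2.12% were. Between the fragments, Csf2 and Csf3 were over 2-fold higher with Ecrg4(71-132) in both sets, as were 0.408% of genes. Against PBS with Ecrg4(71-132) the same 2 genes passed that size in both sets, as did 0.717% of genes. The median log2 difference of the ligand genes between Ecrg4(71-132) and Fc was 1.63 in set 1 and at least 3.16 in set 2, where Csf2 and Csf3 were taken at their bounds, against -0.01 and -0.03 over all genes. Csf2 and Csf3 passed the filter only through groups in which they were high, so these counts and medians are descriptions. The comparisons with Fc share the Fc arrays, and those with PBS share the PBS arrays, so they are not independent of each other.

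Fc without a fragment was set against PBS for the ligand genes. Fc minus PBS was 0.20 in set 1 and near 0 in set 2 for Csf1, -0.10 in set 1 for Csf2 and 0.46 in set 1 for Csf3. In set 2 both controls were below the reliable range for Csf2 and Csf3, and no fold is given there. The limma estimates were 0.10, 0.17 and 0.08 for Csf1, Csf2 and Csf3 (adjusted p = 1 for each), in a comparison in which 0% of genes passed.

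**Figure D3:**
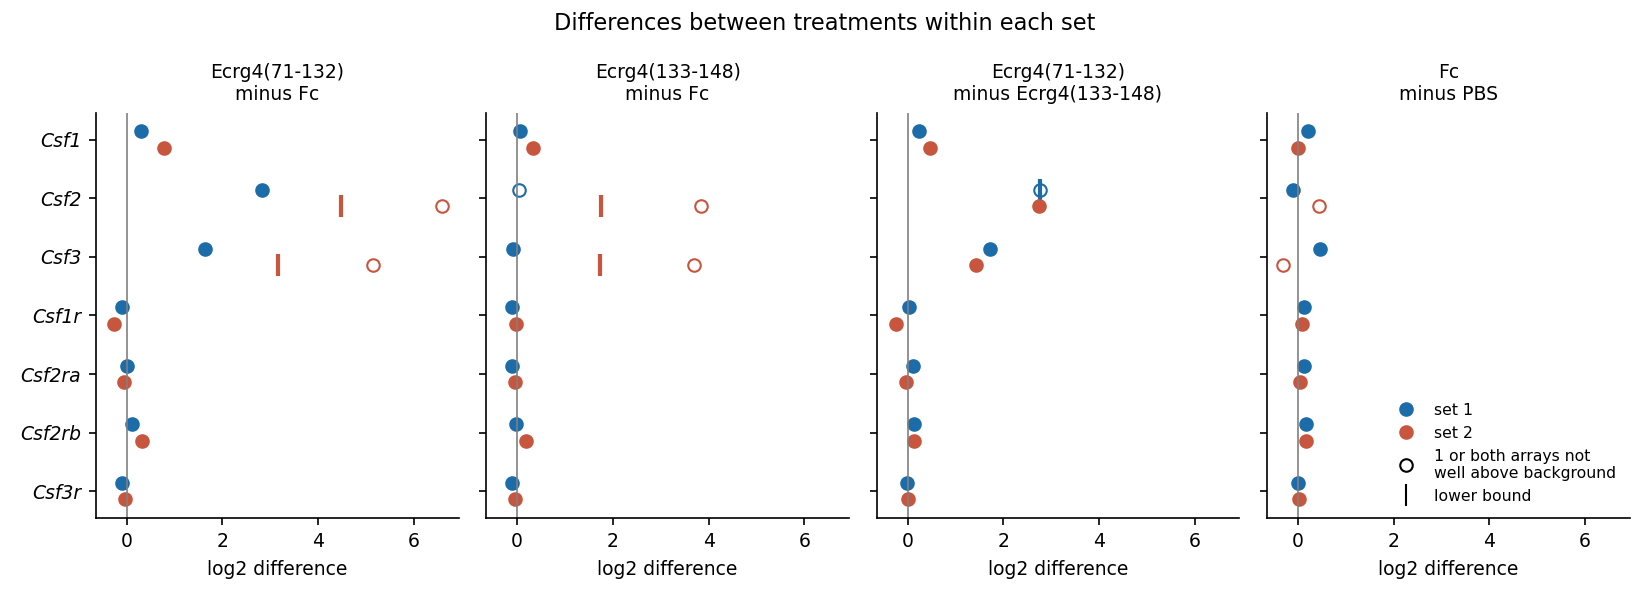
Log2 difference (horizontal axis) of each member gene (vertical axis) in 4 comparisons within set 1 (blue) and set 2 (red). Open circles rest on at least 1 array not well above background, and vertical bars are the lower bounds. The bar of Csf2 between the fragments in set 1 is the measured difference. The ligand genes Csf2 and Csf3 lie to the right of 0 for Ecrg4(71-132) in both sets and for Ecrg4(133-148) in set 2, while the receptor genes stay between -0.27 and 0.33 in the comparisons shown.

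The 4 receptor genes changed much less than Csf2 and Csf3. Over 6 comparisons, 4 genes and both sets, the 48 log2 differences lay between -0.27 and 0.50, and 0 of them passed 2-fold. Without Csf2rb the 36 differences lay between -0.27 and 0.13. No receptor gene passed the limma test in any comparison of treatments, with or without the set as a block.

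Csf1r, the receptor tyrosine kinase for Csf1, read 8.07 with Ecrg4(71-132), 8.05 with Ecrg4(133-148), 8.16 with Fc and 8.03 with PBS in set 1. Its set 2 values were 7.90 with Ecrg4(71-132), 8.13 with Ecrg4(133-148), 8.17 with Fc and 8.08 with PBS. The 8 arrays span 0.27, and the Ecrg4(71-132) array of set 2 was the lowest. Against Fc the limma log2 difference with Ecrg4(71-132) was -0.18 (95% interval -0.50 to 0.14, adjusted p = 1). That interval does not reach 2-fold in either direction.

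Csf2ra, the alpha chain that binds granulocyte-macrophage colony-stimulating factor, read 6.23 with Ecrg4(71-132), 6.12 with Ecrg4(133-148), 6.23 with Fc and 6.10 with PBS in set 1. In set 2 it read 8.01 with Ecrg4(71-132), 8.03 with Ecrg4(133-148), 8.07 with Fc and 8.03 with PBS. Treatments lay within 0.13 of each other in set 1 and within 0.06 in set 2, and every set 2 array was above every set 1 array. The difference between Ecrg4(71-132) and Fc was -0.03 on the log2 scale, with a 95% interval of -0.21 to 0.15 in limma with the set as a block (adjusted p = 0.834).

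Csf2rb, the signalling chain, was the receptor gene with the most spread over treatments. Its log2 signal was 7.06 with Ecrg4(71-132), 6.93 with Ecrg4(133-148), 6.94 with Fc and 6.77 with PBS in set 1. In set 2 it was 8.44 with Ecrg4(71-132), 8.31 with Ecrg4(133-148), 8.12 with Fc and 7.95 with PBS. Ecrg4(71-132) was highest and PBS lowest in both sets, and Fc itself lay 0.17 above PBS in each. The log2 difference of Ecrg4(71-132) over PBS was 0.39, with an unadjusted p of 0.00813 and an adjusted p of 0.136 in limma with the set as a block. A second Csf2rb probe ran in the same direction, with 3.58 for Ecrg4(71-132) and 3.20 for PBS in set 1, and 5.13 and 4.47 in set 2. Csf2rb2, a mouse paralog that acts as the beta chain of the interleukin-3 receptor, is nearly identical in sequence, and cross-hybridisation between their probes was not tested. Csf2rb2 read 5.89 with Ecrg4(71-132), 5.65 with Ecrg4(133-148), 5.67 with Fc and 5.51 with PBS in set 1, and 7.58, 7.35, 7.12 and 6.98 in the same order in set 2.

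Csf3r, the receptor of granulocyte colony-stimulating factor, read 6.24 with Ecrg4(71-132), 6.24 with Ecrg4(133-148), 6.34 with Fc and 6.33 with PBS in set 1. The set 2 values of Csf3r were 6.70 with Ecrg4(71-132), 6.69 with Ecrg4(133-148), 6.74 with Fc and 6.71 with PBS. Both fragments lay below both controls in each set, by at most 0.10 on the log2 scale. That difference did not pass, with a limma estimate of -0.07 for Ecrg4(71-132) minus Fc (SE 0.28, adjusted p = 1).

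The sets differed more for some members than the treatments did. Set 1 minus set 2 was tested in limma with the treatment in the fit, and 59.3% of all genes passed that test, 22.8% higher in set 1 and 36.4% lower. Of the 7 members, 4 passed, a share close to that background. Each set was made once and lay in its own column of the slide, so these p-values do not measure how much sets vary. Csf1 averaged 3.63 ± 0.21 in set 1 and 1.59 ± 0.37 in set 2 (SD over the 4 arrays of a set, 1 per treatment). Its log2 difference was 2.04 (SE 0.09, limma adjusted p = 0.000198), and 6.81% of genes passed and were over 2-fold higher in set 1. Its other 2 probes gave 2.35 and 2.32. The fibroblast and astrocyte markers given above were likewise well above background in set 1, and their part in the Csf1 difference was not tested.

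The receptor genes Csf2ra, Csf2rb and Csf3r ran the other way. Csf2ra was 1.86 lower in set 1 than in set 2 on the log2 scale (SE 0.05, limma adjusted p = 8.99e-05), Csf2rb was 1.28 lower (SE 0.06, adjusted p = 0.000242) and Csf3r was 0.42 lower (SE 0.04, adjusted p = 0.00158). As folds, set 2 exceeded set 1 by 3.64, 2.43 and 1.34. Of all genes, 8.42% passed and were over 2-fold lower in set 1. The second Csf2rb probe gave -1.42. Summed signals of some other marker lists were also lower in set 1. Those of 4 neutrophil genes were 19.1 to 22.2 in set 1 and 23.5 to 29.3 in set 2, mostly from S100a8 and Elane, with 3 genes well above background in set 1 and 2 in set 2. The neuron sums were 3.30 to 3.57 in set 1 and 4.14 to 7.96 in set 2, mostly from Snap25. Of the 4 neuron genes, 2 or 3 were well above background in set 1 and 1 in set 2. Tubb3 ran the other way, at -2.24 to -1.90 in set 1 and -6.07 to -5.03 in set 2. The lymphocyte sums were 4.41 to 5.02 in set 1 and 6.51 to 7.60 in set 2. The part of these markers in the receptor differences was not tested. Csf1r differed by 0.01 (SE 0.06, adjusted p = 0.897), while its other 2 probes gave 0.33 and 0.25. For Csf2 the difference was -0.61 (SE 0.95) and for Csf3 -0.69 (SE 0.78), and neither passed (limma adjusted p = 0.606 and 0.482).

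**Figure D4:**
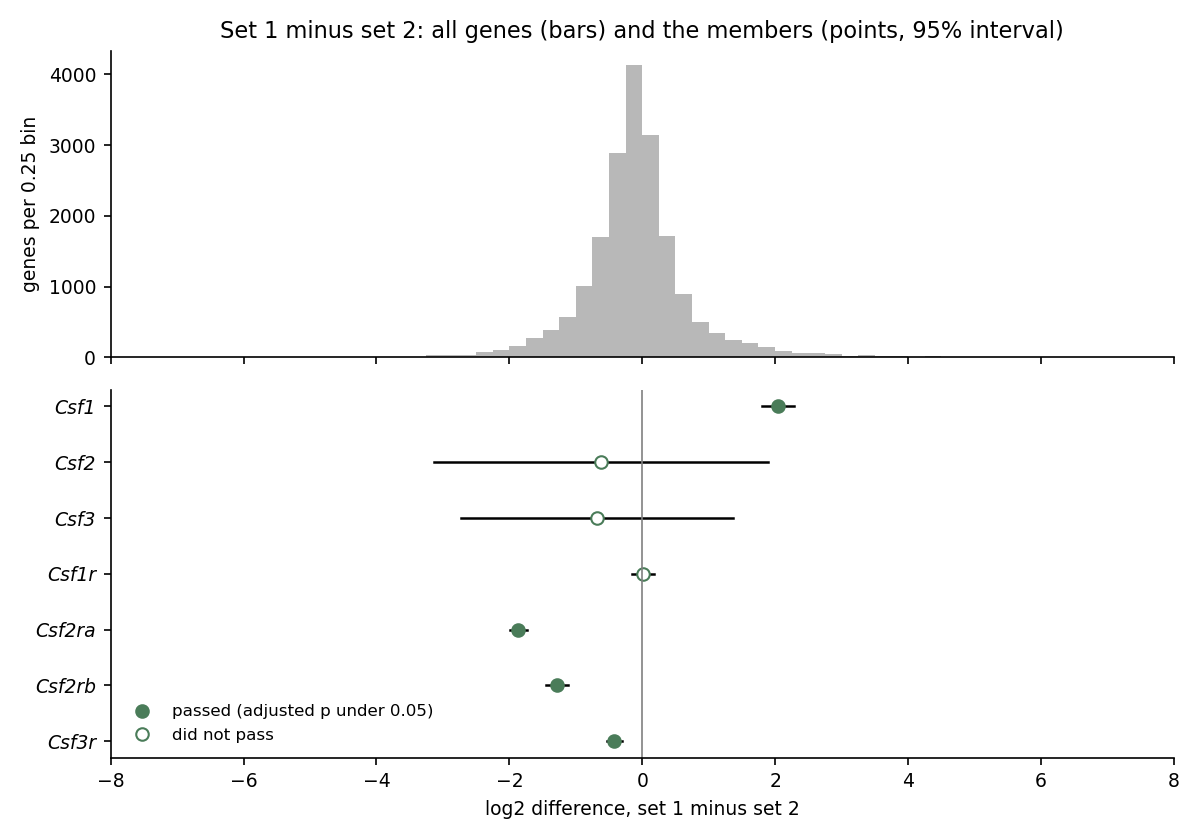
Log2 difference of set 1 minus set 2 (horizontal axis) for all 19117 genes as counts per bin of 0.25 (upper panel) and for the 7 members with their 95% intervals (lower panel). Filled points passed the test. Csf1 lies at 2.04, Csf2ra at -1.86, Csf2rb at -1.28 and Csf3r at -0.42, while Csf1r lies at 0.01.

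Whether the response differed between the sets was asked by setting the mean of the 2 fragment arrays against the mean of Fc and PBS in each set. For Csf2 this response was 1.38 in set 1 and 5.44 in set 2 on the log2 scale, and for Csf3 it was 1.0 in set 1 and 4.27 in set 2. The difference of these responses was -4.06 for Csf2 (SE 1.67) and -3.27 for Csf3 (SE 0.98). Limma gave unadjusted p-values of 0.0539 for Csf2 and 0.0175 for Csf3, and an adjusted p of 0.589 for both. For Csf1 the responses were 0.28 in set 1 and 0.55 in set 2, and their difference did not pass either (limma adjusted p = 0.682). In that comparison 0% of genes passed and 7.73% had an unadjusted p under 0.05. The set 2 values use control signals as measured below the reliable range, and the lowest signal well above background lay between -5.14 and -4.40 in set 1 and between -4.13 and -3.72 in set 2.

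Genes that act with the members were described from lists of known roles. Of 6 related ligand and receptor chain genes, Il3ra and Csf2rb2 were measured, and Il34, the other ligand of Csf1r, was among the 4 that did not pass the filter. Of 28 signalling and feedback genes downstream of the receptors 27 were measured, and none passed in any comparison of treatments. With Ecrg4(71-132) against Fc, 12 of the 27 were higher in both sets and 9 lower in both, where 28.5% of all genes were higher and 36.4% lower. The list's median was 0.01 in set 1 and 0.16 in set 2, against -0.01 and -0.03 over all genes. The largest same-sign difference was that of Socs3, a feedback inhibitor of JAK-STAT signalling. Socs3 read 5.57 with Ecrg4(71-132), 4.48 with Ecrg4(133-148), 4.55 with Fc and 4.14 with PBS in set 1. In set 2 it read 6.64, 5.63, 4.24 and 3.71 in the same order. Ecrg4(71-132) was the highest array in each set, by 1.03 over Fc in set 1 and 2.40 in set 2 (limma log2 difference 1.72, SE 0.52, adjusted p = 1). When the set was a block that p was 0.226.

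Cish, a feedback inhibitor that STAT5 is known to induce, had the largest same-sign difference of the list between Ecrg4(133-148) and Fc, at 0.15 in set 1 and 0.50 in set 2. It read 2.76 with Ecrg4(71-132), 2.45 with Ecrg4(133-148), 2.30 with Fc and 2.14 with PBS in set 1, and 5.17, 4.36, 3.86 and 3.67 in the same order in set 2. Both sets were ordered alike and did not overlap. Further genes were chosen after their values were seen. Jak2, the kinase bound to Csf2rb, was 0.42 higher with Ecrg4(71-132) than with Fc in set 1 and 1.97 higher in set 2, Stat5a 0.27 and 1.45, and Socs1, another feedback inhibitor, 0.67 and 1.68. Also chosen after their values were seen were genes well below 0 in set 2, namely Inpp5d, a lipid phosphatase, at -0.09 in set 1 and -0.99 in set 2, and Pik3cd, a lipid kinase subunit, at -0.30 and -1.26.

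**Figure D5:**
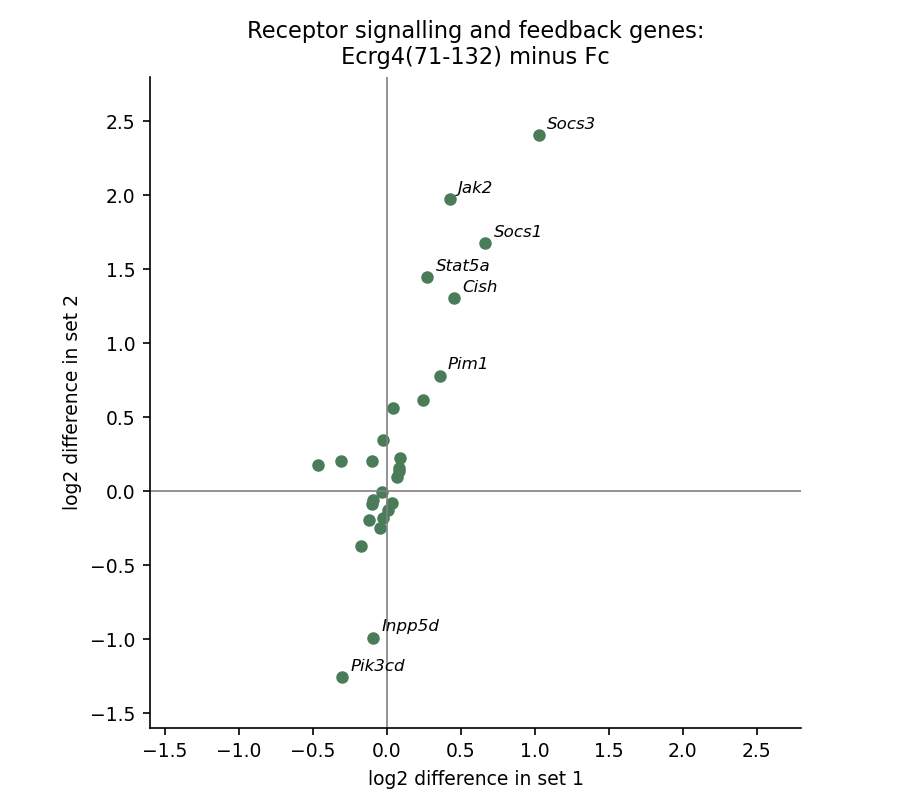
Log2 difference of Ecrg4(71-132) minus Fc in set 1 (horizontal axis) and set 2 (vertical axis) for the 27 measured genes of receptor signalling and feedback, each point a gene, with those over 0.7 in size in set 2 named. Socs3 lies farthest from the origin, at 1.03 and 2.40, and most genes lie near 0.

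Between the sets, 18 of the 27 signalling genes passed, 3 higher in set 1 and 15 lower. Of all genes 59.3% passed, 22.8% higher in set 1 and 36.4% lower. Socs1 was the furthest above 0, at 2.10 (SE 0.19, limma adjusted p = 0.00111). Cish, Pim1 and Socs2 were lower in set 1 by 1.85, 1.23 and 1.21 on the log2 scale (limma adjusted p = 0.00119, 0.00278 and 0.00101). Of the related genes, Csf2rb2 was 1.58 lower and Il3ra 0.76 lower in set 1 (adjusted p = 0.000189 and 0.000499).

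All 9 listed transcription factors of myeloid receptor genes were measured, and none passed between treatments. With Ecrg4(71-132) against Fc, 3 were higher in both sets and 6 lower in both, where 28.5% of all genes were higher and 36.4% lower, and the median was -0.05 in set 1 and -0.32 in set 2. Klf4, a factor of monocyte and macrophage differentiation, had the largest same-sign difference. It read 1.66 with Ecrg4(71-132), 2.15 with Ecrg4(133-148), 2.19 with Fc and 2.25 with PBS in set 1, and 1.67, 2.92, 3.67 and 3.96 in set 2. Ecrg4(71-132) was the lowest array of each set. Spi1, which encodes PU.1 and was chosen after its values were seen, read 2.03 with Ecrg4(71-132), 1.91 with Ecrg4(133-148), 1.83 with Fc and 1.62 with PBS in set 1, and 2.45, 2.24, 2.08 and 2.0 in set 2. All 9 passed between the sets, 3 higher in set 1 and 6 lower, where 22.8% of all genes passed as higher and 36.4% as lower, and the largest were Cebpe at 1.41 and Gfi1 at -1.37 (limma adjusted p = 0.00035 and 0.000411). Of 5 genes for proteins that shed or degrade the receptors, none passed between treatments. Elane, an elastase gene, read 2.29 with Ecrg4(71-132), 2.24 with Ecrg4(133-148), 2.84 with Fc and 2.29 with PBS in set 1, and 2.66, 2.71, 2.73 and 2.61 in the same order in set 2. In set 1 the Fc array alone stood apart, and Fc minus PBS was 0.55 there. Adam17, a sheddase that cleaves Csf1r, was 0.27 higher with Ecrg4(71-132) than with PBS in set 1 and 0.35 higher in set 2. Timp3, an inhibitor of such sheddases, was 4.59 higher in set 1 than in set 2 (SE 0.50, limma adjusted p = 0.00192).

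The ligand genes resembled each other over the arrays. After the mean of each set was taken out, the 8 values of Csf2 and Csf3 had a Pearson r of 0.985, those of Csf1 and Csf2 0.945 and those of Csf1 and Csf3 0.937. Csf2rb had an r of 0.928 with Csf1, whereas Csf1r had -0.633. All these points share the same 8 arrays and their scaling, and the signals of Csf2 and Csf3 below the reliable range entered as measured. Csf2 and Csf3 were kept only through fragment groups, which favoured a high r between them, so that r is a description. Among 11565 other genes with a symbol and all arrays well above background, those closest to Csf2 were Ppara (r 0.995), Mmp14 (0.991) and Pde4b (0.989). Those closest to Csf3 were Bcl6 (0.989), B4galnt2 (0.985) and Taf1c (0.982). Among 11564 candidates the closest to Csf1 were Tlk2 (0.997), Ndel1 (0.996) and Prdx5 (0.996), and the closest to Csf1r were Dgcr2 (0.983), Gmppa (0.976) and Hadhb (0.969). A high r says nothing of size, since Ppara differed between Ecrg4(71-132) and Fc by 0.08 in set 1 and 0.17 in set 2, and Pde4b by 0.91 and 2.59.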

How the data were processed

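Each deposited scanner file holds the spots' intensity on a linear scale, from which the authors had subtracted the background. Agilent Feature Extraction, version 11.0.1.1, is named in the submitters' processing notes. The deposited flags mark outlying spots and spots well above background, and no spot was saturated. The deposited log2 table differed from log2 intensity by 1 constant per array (r of at least 0.999993, column medians -4.48 to -4.21); the sources used here do not say how the authors chose it.

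From these, log2 intensity minus log2 of the array's 75th percentile was computed, outlying spots were dropped and spots of a probe averaged. A probe counted as well above background where most of its used spots did. Those that counted so on the 2 arrays of some group were kept (25247 of 55681), and the brightest stood for each gene. Of the probes, 28026 matched a symbol of GRCm38.p6 through an unversioned RefSeq accession. The fit used limma 3.58.1 under R 4.3.3, all 8 arrays and 4 group means (4 residual degrees of freedom), with Benjamini-Hochberg adjustment over 19117 genes within each comparison and a threshold of 0.05. A bound, written "at least", sets the bright array against the higher of the lowest signal well above background on the dim array and the dim probe's own. It uses 1 array a side, so it has no replicate error. A dim probe can lie above that lowest signal, so a bound is not a strict limit. The fit was tested on simulated data.

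Members, lists and comparisons were chosen with earlier results of these data known. Named genes are all members, the list genes that passed (up to 4 per list) or else the largest change of the same sign in both sets, and the 3 genes most like Csf1, Csf2, Csf3 and Csf1r. The number of arrays limits the precision. All arrays were on 1 slide, with set 1 and set 2 in separate columns. Across genes, the difference between the sets in 1 treatment correlated with that in another at 0.783 to 0.862 (6 pairs of treatments), so the sets were taken as pairs in the fits with a block. One marker list is not reported here.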

Additional observations from a re-analysis of the deposited data

How the results depend on the processing

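Normexp background correction, quantile and median scaling, both other filters, the mean of the probes, the deposited table, robust moderation and the set as a replicate block left 0 genes passed in the 6 comparisons of treatments, as before. Of the member differences recomputed under them they turned 1, that of Csf2ra for Ecrg4(71-132) minus Fc with median scaling (0.029, against -0.032). The set difference was passed by 18666 of 36754 genes with no filter, against 11331 of 19117, a smaller share. The difference in response between the sets was passed by 23 genes with no filter, by 1 with probes well above background on all 8 arrays and by 1 with quantile scaling, against 0. Between the sets, Csf3 passed with normexp (-1.01), and Csf1r with the mean of its probes (0.20) and with quantile scaling (0.19); the cause was not tested. Leaving out 1 array at a time gave 0 to 192 genes for the difference in response, the most without Ecrg4(133-148) of set 2. With the set as a replicate block it gave 0 to 481 genes for Ecrg4(71-132) minus Fc and 0 to 1077 for Ecrg4(71-132) minus PBS, the most without Ecrg4(71-132) of set 1 (without Fc of set 1 the first was 1, without PBS of set 1 the second was 3); no member was among them. Without the block, an array left out unbalances the sets, and log2 differences then turned sign. The ranges for Csf1 were -0.60 to 1.68 for Ecrg4(71-132) minus Fc, -0.95 to 1.33 for Ecrg4(133-148) minus Fc, -0.66 to 1.36 between the fragments, -0.40 to 1.68 for Ecrg4(71-132) minus PBS, -0.75 to 1.33 for Ecrg4(133-148) minus PBS and -1.04 to 1.24 for Fc minus PBS. For Csf2rb they were -0.47 to 0.91 for Ecrg4(71-132) minus Fc, -0.30 to 1.09 for Ecrg4(71-132) minus PBS and -0.43 to 0.95 for Ecrg4(133-148) minus PBS. Ecrg4(71-132) minus Fc ran from -0.95 to 0.89 for Csf2ra and from -0.30 to 0.16 for Csf3r. Fc minus PBS ran from -0.67 to 1.02 for Csf2 and from -0.59 to 0.74 for Csf3. With the block, Ecrg4(71-132) minus Fc without Ecrg4(71-132) of set 2 was 0.025 for Csf2ra, Fc minus PBS without Fc of set 1 was -0.058 for Csf1, -0.999 for Csf2 and -1.27 for Csf3, and without PBS of set 2 -1.37 for Csf2 and -0.76 for Csf3. Set 1 minus set 2 ran from -1.38 to 0.068 for Csf2 and from -0.044 to 0.041 for Csf1r. Ecrg4(71-132) minus Fc stayed above 0 for Csf2 (3.36 to 6.05) and Csf3 (2.04 to 4.73) with each array left out, with and without the block. Low signal over background limits Csf2 and Csf3 in the set 2 controls.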
